A study of Mus musculus with 16 samples.

Results

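The 10 marker genes Trem2, Gpnmb, Itgax, Cd9, Spp1, Lgals3, Mmp12, Cd68, Ccr2 and Cx3cr1 were followed as a readout of recruited and lipid-associated macrophages in whole mouse liver. They were taken by symbol from the deposited gene table of each liver, and all 10 of them, among 17410 genes in the 16 tables, had a row in every table. All 10 had enough reads to be tested in each of the 3 comparisons below. The livers came from a study of ChREBPα, a form of the sugar-sensing transcription factor ChREBP that the gene Mlxipl encodes, in mice fed steatohepatitis diets. RNA was sequenced as 1 library per liver, with 4 livers in each of 4 groups.

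LKO_NASH and WT_NASH livers (numbered 21 to 24 and 17 to 20) came from Chrebpα-flox/flox mice, so both groups carry the floxed allele. LKO_NASH mice received an adeno-associated virus with Cre and WT_NASH mice the same kind of virus with GFP, each behind TBG, a promoter active in hepatocytes, so that deletion is directed to hepatocytes and not to macrophages. Both groups were on a NASH diet for 12 weeks, in which fat supplied 40% and fructose 20% of the calories and cholesterol was added at 2%. Ad_Chrebpa_HFLMCD and Ad_GFP_HFLMCD livers (13 to 16 and 9 to 12) came from mice labelled wildtype, aged 2 months, on an HFLMCD diet with 45% of calories from fat, no choline and 0.1% methionine for 3 weeks. These mice received an adenovirus for Chrebpα or for GFP, with 1 further week of feeding before dissection, and the labels do not say whether that week is counted in the 3. The sources used here do not give the promoter of the adenovirus, the strain and sex, or the age of the NASH diet mice. The labels number the livers without stating that each is a separate animal, so the p-values cover only the spread among samples, which may be technical.

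Resident liver macrophages, the Kupffer cells, renew themselves, whereas injured and fatty livers also draw in monocytes from the blood through chemokine receptors such as Ccr2. Some of the incoming cells take on a lipid-associated state, described in fat tissue and fatty liver, in which the lipid receptor Trem2 is expressed together with genes for lysosomes, lipid handling and matrix breakdown. No member belongs to that state alone: Cd68 is a lysosomal protein of macrophages in general, Cd9 is a tetraspanin of many cell types, and Spp1 (osteopontin) is also made by bile duct cells. In bulk liver, fewer cells of a type and less RNA per cell cannot be told apart.

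The libraries held 21254937 to 40327264 expected counts. Mlxipl was not lower in livers labelled LKO_NASH (76.4 ± 22.3 FPKM, against 66.1 ± 15.1 in WT_NASH; SD, n = 4 each; edgeR log2 fold change 0.05, adjusted p = 0.916). It was not called higher in livers labelled Ad_Chrebpa_HFLMCD either (46.1 ± 1.41 FPKM, against 43.7 ± 4.61 in Ad_GFP_HFLMCD; log2 fold change 0.15, adjusted p = 0.241). The values cover the whole gene and the labels do not name the deleted exon, so they do not check the deletion. For the adenovirus they show no called rise of Mlxipl, and why was not tested. Overexpression is therefore not shown by these values, and group names below are those of the labels. In each of the 16 livers the 6 hepatocyte markers summed to 35670 to 62465 FPKM. FPKM is fragments per kilobase of transcript scaled to library size, as the authors calculated it.

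Among the members, Gpnmb, Mmp12, Itgax and Trem2 had the largest log2 fold changes between WT_NASH and Ad_GFP_HFLMCD. Their start regions are printed with that of Cd68, the general macrophage gene, with sequence motifs of macrophage transcription factors marked. The windows hold 250 bases before and 50 after a RefSeq start on GRCm38.p6. Capitals mark GAGGAA, the core of the PU.1 motif, or TGANTCA, a loose form of the AP-1 motif, on either strand. The AP-1 motif itself is TGAGTCA or TGACTCA, and the stretch marked in Trem2, TGAATCA, is neither. Trem2 lies at chr17:48346151-48346450, Gpnmb at chr6:49036268-49036567, Itgax at chr7:128129300-128129599 and the second of the 2 windows of Mmp12 at chr9:7347124-7347423, all on the plus strand, and Cd68 at chr11:69666121-69666420 on the minus strand.
Trem2: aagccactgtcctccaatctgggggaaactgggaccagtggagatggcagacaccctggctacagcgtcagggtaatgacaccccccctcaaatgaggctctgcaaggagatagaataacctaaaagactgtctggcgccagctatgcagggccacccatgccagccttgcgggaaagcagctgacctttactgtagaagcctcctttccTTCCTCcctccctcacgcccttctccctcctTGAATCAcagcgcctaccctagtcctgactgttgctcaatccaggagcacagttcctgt
Gpnmb: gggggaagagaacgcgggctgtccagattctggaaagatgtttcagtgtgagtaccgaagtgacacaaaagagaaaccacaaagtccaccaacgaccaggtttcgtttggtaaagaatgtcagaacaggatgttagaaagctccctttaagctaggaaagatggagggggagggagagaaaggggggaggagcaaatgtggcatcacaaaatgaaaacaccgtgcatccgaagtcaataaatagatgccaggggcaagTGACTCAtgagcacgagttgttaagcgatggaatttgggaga
Itgax: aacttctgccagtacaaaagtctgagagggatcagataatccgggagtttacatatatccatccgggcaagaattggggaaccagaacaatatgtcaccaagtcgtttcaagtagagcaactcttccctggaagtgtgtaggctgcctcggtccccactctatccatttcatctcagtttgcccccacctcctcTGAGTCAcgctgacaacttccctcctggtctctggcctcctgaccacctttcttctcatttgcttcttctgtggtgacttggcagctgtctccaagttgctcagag
Mmp12: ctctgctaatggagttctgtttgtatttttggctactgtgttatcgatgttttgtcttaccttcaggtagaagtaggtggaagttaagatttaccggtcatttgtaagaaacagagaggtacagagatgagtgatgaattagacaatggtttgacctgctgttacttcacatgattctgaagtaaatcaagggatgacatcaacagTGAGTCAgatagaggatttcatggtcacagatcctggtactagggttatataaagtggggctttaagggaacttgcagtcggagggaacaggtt
Cd68: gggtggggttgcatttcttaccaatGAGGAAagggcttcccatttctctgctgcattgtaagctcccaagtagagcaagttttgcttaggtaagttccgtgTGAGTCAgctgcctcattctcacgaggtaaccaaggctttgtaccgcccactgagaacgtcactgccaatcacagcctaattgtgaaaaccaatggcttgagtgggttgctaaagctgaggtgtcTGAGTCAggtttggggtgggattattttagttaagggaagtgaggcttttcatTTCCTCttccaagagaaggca

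All 10 members matched the promoter table by NCBI gene number, with 12 windows. TGANTCA lay in 5 of the 12 windows (41.7%), those printed above, and in 7.81% of the 32851 windows of the table. Windows without TGANTCA, among them the other Mmp12 window with GAGGAA only, were not printed, so the printed set follows that motif. GAGGAA lay in 4 windows (33.3%), of Trem2, Spp1, Mmp12 and Cd68, against 28.3% of all windows. CACGTG, the E-box core that TFEB and TFE3 also bind, lay in none of the 12, against 7.15% of all windows, and a strict form of the carbohydrate response element of ChREBP, a pair of such E-boxes with 5 bases between them, lay in none of the 12 and 0 of the 32851. A match describes letters only, and these windows say nothing about binding in the livers.

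The members fell into 2 separate ranges by diet. For each of the 10 genes the lowest of the 8 HFLMCD livers lay above the highest of the 8 NASH diet livers, by 17.6-fold for Mmp12, 8.04-fold for Gpnmb and 7.90-fold for Lgals3, and by 1.84-fold for Spp1 at the other end. All 10 were also separate on TMM CPM, counts relative to a library size scaled by TMM. Of 13830 genes, 44.5% were lower in all 8 NASH diet livers without overlap on FPKM and 15.8% on TMM CPM. Summed over the 10 genes, livers held 56.7 to 107 FPKM in LKO_NASH and 40.6 to 74.8 FPKM in WT_NASH, and 646 to 910 FPKM in Ad_Chrebpa_HFLMCD and 626 to 939 FPKM in Ad_GFP_HFLMCD. The order of the genes by FPKM, a scale per length, differed too. Spp1, Cd9 and Cd68 had the highest group means in LKO_NASH (33.2, 15.0 and 14.7 FPKM) and in WT_NASH (25.7, 15.1 and 7.17 FPKM). In Ad_Chrebpa_HFLMCD, Gpnmb, Lgals3 and Mmp12 led (160, 154 and 129 FPKM), and in Ad_GFP_HFLMCD, Spp1, Gpnmb and Lgals3 (181, 142 and 137 FPKM). Between the 2 groups of a diet, the ranges of the 4 livers overlapped for every member except Cx3cr1 in the HFLMCD livers.

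**Figure D1:**
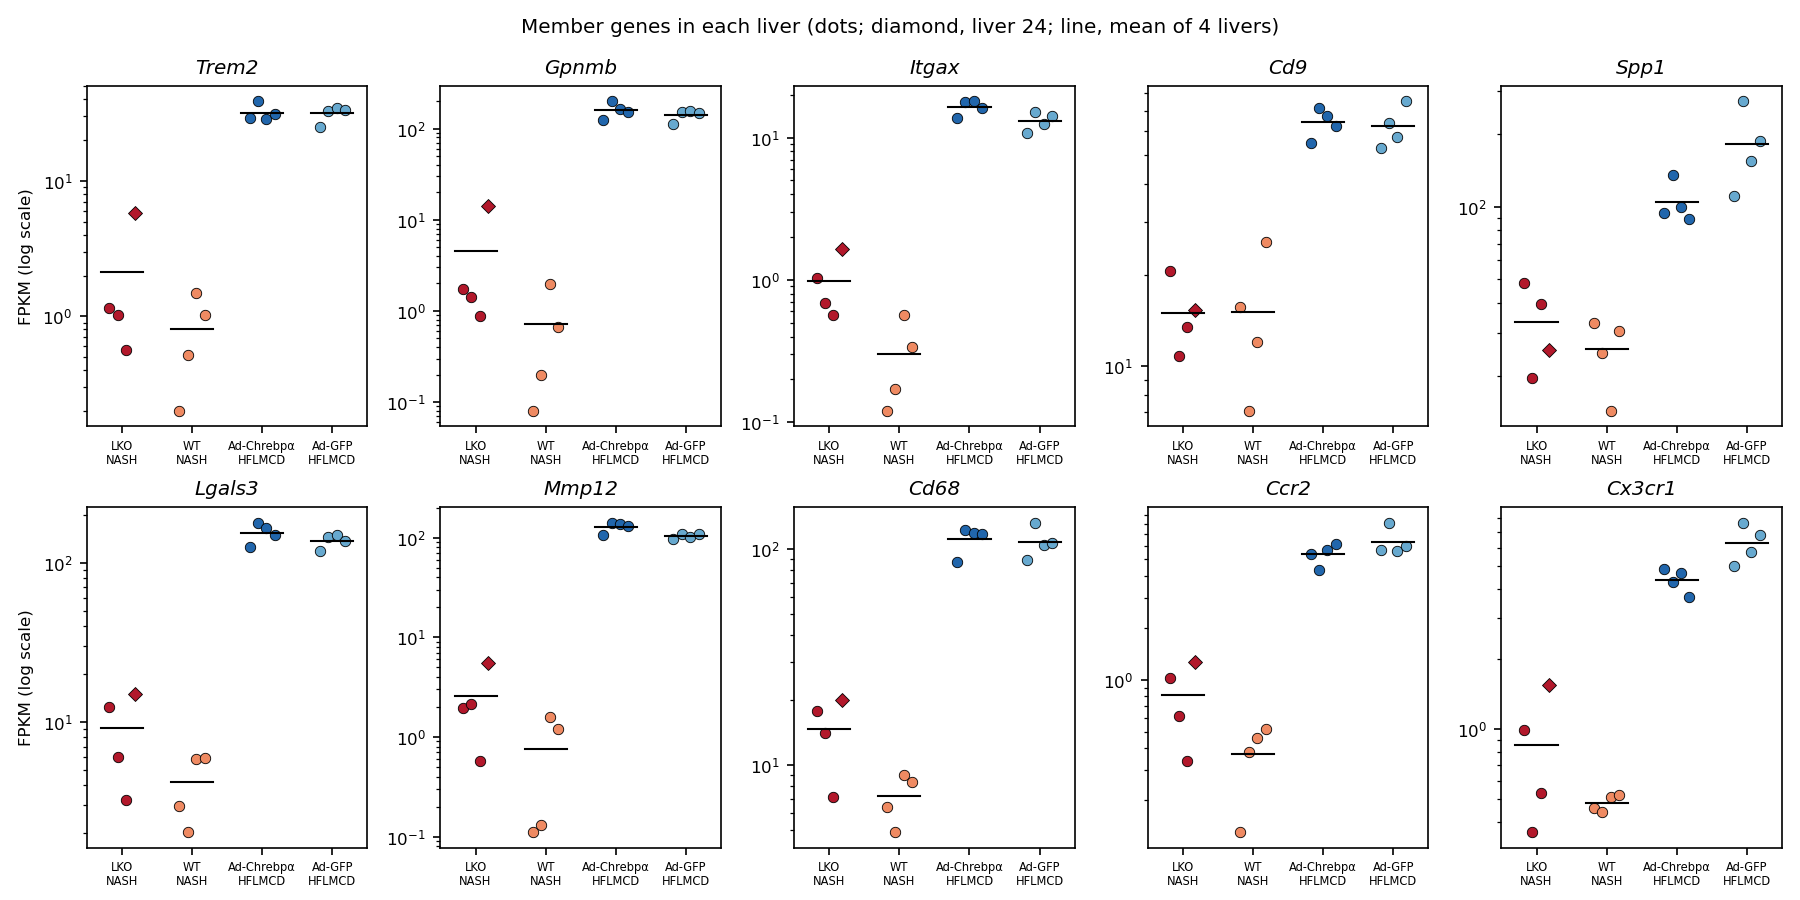
FPKM of the 10 genes (log axis, 1 panel a gene) in 4 groups, with 1 point per liver, a diamond for liver 24 and a line at the mean of 4. All 8 HFLMCD livers lie above all 8 NASH diet livers in every panel, a separation that 44.5% of all genes showed on FPKM, and liver 24 has the highest NASH diet value of Trem2 (5.80 FPKM) and of Gpnmb (14.0 FPKM).

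The control livers of both experiments, WT_NASH against Ad_GFP_HFLMCD, show the size of that difference without altered ChREBPα. All 10 members were lower in WT_NASH (edgeR quasi-likelihood test, Benjamini-Hochberg adjusted p below 0.05 over 13488 genes), where 59.1% of all genes tested were called, 30.9% lower and 28.2% higher. The median log2 fold change was -3.92 over the members and -0.01 over all genes, and 8 of 10 members had a log2 fold change of -3 or lower, which 2.82% of genes reached. The groups of 4 livers overlapped for none of the members. Of all genes, 68.9% were lower without overlap on FPKM and 27.5% on TMM CPM. Diet, its length, virus type, mouse line and experiment differ together between these groups and cannot be told apart. The comparison shares its WT_NASH livers with the deletion comparison and its Ad_GFP_HFLMCD livers with the adenovirus comparison.

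Among the genes of the lipid-associated state, Gpnmb, a transmembrane glycoprotein of lysosomes, differed most. Its values were 0.08, 0.20, 1.95 and 0.67 FPKM in WT_NASH livers 17 to 20, against 113, 152.5, 155 and 149 FPKM in Ad_GFP_HFLMCD livers 9 to 12. Every Ad_GFP_HFLMCD liver was far above every WT_NASH liver, and the WT_NASH livers themselves spread widely, with 17 and 18 lowest. The log2 fold change was -6.93 (SE 0.74, adjusted p = 3.5e-05), 122-fold lower in WT_NASH, and -8.13 without liver 19.

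Mmp12, a macrophage elastase, had 0.11, 0.13, 1.59 and 1.20 FPKM in WT_NASH, against 97.1, 110.1, 102 and 109 FPKM in Ad_GFP_HFLMCD. Livers 17 and 18 were again the low ones, and the Ad_GFP_HFLMCD livers lay close together. The log2 fold change was -6.43 (SE 0.66, adjusted p = 2.9e-05), 86.3-fold lower in WT_NASH, and -7.07 without liver 19. Trem2, the lipid receptor, had 0.20, 0.52, 1.49 and 1.03 FPKM in WT_NASH, against 25.0, 32.8, 34.5 and 33.6 FPKM in Ad_GFP_HFLMCD. It was 23.8-fold lower in WT_NASH (log2 fold change -4.57, SE 0.34, adjusted p = 5.2e-06). These low values rest on few reads: WT_NASH libraries held 6 to 65 expected counts of Trem2, against 874 to 1317 in Ad_GFP_HFLMCD libraries.

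Itgax, which encodes the integrin CD11c of dendritic cells and of lipid-associated macrophages, had 0.12, 0.17, 0.57 and 0.34 FPKM in WT_NASH, against 10.7, 15.2, 12.4 and 14.2 FPKM in Ad_GFP_HFLMCD. Lgals3, which encodes the lectin galectin-3, had 2.96, 2.02, 5.84 and 5.93 FPKM in WT_NASH, against 118, 145, 149 and 138 FPKM in Ad_GFP_HFLMCD. The groups did not overlap for either gene. Their log2 fold changes were -4.75 (SE 0.33, adjusted p = 3.1e-06) for Itgax and -4.40 (SE 0.28, adjusted p = 2.5e-06) for Lgals3.

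Cd68 had 6.42, 4.88, 8.99 and 8.38 FPKM in WT_NASH, against 89.1, 132, 105 and 107 FPKM in Ad_GFP_HFLMCD, so that edgeR gave -3.29 on the log2 scale (SE 0.17, adjusted p = 1.2e-06). Ccr2, the receptor with which monocytes leave the marrow and enter tissue, had 0.13, 0.38, 0.46 and 0.52 FPKM in WT_NASH, against 5.70, 8.13, 5.59 and 5.96 FPKM in Ad_GFP_HFLMCD (log2 fold change -3.44, SE 0.28, adjusted p = 7.6e-06). Cx3cr1, the fractalkine receptor of monocytes and some macrophages, had 0.46, 0.44, 0.51 and 0.52 FPKM in WT_NASH, against 5.02, 7.65, 5.74 and 6.81 FPKM in Ad_GFP_HFLMCD (log2 fold change -3.07, SE 0.14, adjusted p = 7.8e-07). Both receptors stood at 0.52 FPKM or less in every WT_NASH liver, and Cx3cr1 was even across them. Decimals in the expected counts show that some reads of Itgax, Ccr2 and Cx3cr1 were shared with other features in 12, 15 and 16 of the 16 livers and of Gpnmb in 2, and Cd9 and Cx3cr1 overlap predicted genes, so these values carry that uncertainty.

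Spp1 and Cd9 differed least among the members. Spp1 had 33.1, 24.8, 14.3 and 30.5 FPKM in WT_NASH, against 110.0, 272, 154 and 187 FPKM in Ad_GFP_HFLMCD (log2 fold change -2.18, SE 0.31, adjusted p = 2.0e-04). Cd9 had 15.7, 7.08, 11.9 and 25.7 FPKM in WT_NASH, against 52.5, 63.7, 57.1 and 75.1 FPKM in Ad_GFP_HFLMCD (log2 fold change -1.42, SE 0.29, adjusted p = 0.0021). Of the cholangiocyte markers, which stand for the bile duct cells that also make Spp1, 4 of 8 tested were lower in WT_NASH and none higher. They included Cftr, a chloride channel (log2 fold change -3.13), the mucin Muc1 (-1.26) and the transcription factor Sox9 (-0.94). The 9 markers found summed to 9.74 to 15.8 FPKM in WT_NASH, against 17.4 to 27.7 FPKM in Ad_GFP_HFLMCD, and their part in the Spp1 difference was not tested.

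The other genes of the same biology moved the same way where they were called. Of 15 further lipid-associated macrophage genes, 11 were lower in WT_NASH and none higher (median log2 fold change -1.54). They included Atp6v0d2, a proton pump subunit of lysosomes (-4.51), the protease cathepsin S gene Ctss (-3.24) and annexin gene Anxa5 (-2.27). All 9 genes of TREM2 signalling were lower, with the kinase gene Syk at -3.01, the adaptor gene Tyrobp, through which Trem2 signals, at -2.87 and the phosphatase gene Inpp5d at -2.39. Of the ligands and growth factors for monocytes and macrophages, 5 of 6 tested were lower, led by the Ccr2 ligands Ccl7 (-5.42) and Ccl2 (-4.35), and Cx3cl1, the ligand of Cx3cr1, was at -2.32. Of the osteopontin receptors, 5 of 7 were lower, among them Cd44 (-2.78), Itga4 (-1.21) and Itga9 (-1.20).

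Marker lists of whole cell types were read beside the members, and they do not show which cells held the members' RNA. All 10 genes of macrophages in general were lower in WT_NASH (median -2.20), including Lyz2 (-3.68), the complement gene C1qb (-2.12) and Aif1 (-1.99), and they summed to 107 to 216 FPKM in WT_NASH, against 1115 to 1687 FPKM in Ad_GFP_HFLMCD. All 7 monocyte genes were lower (median -3.11; Ms4a7 -3.80, S100a4 -3.46, Itgam -3.37), and summed to 3.95 to 4.54 FPKM in WT_NASH, against 29.9 to 45.3 FPKM in Ad_GFP_HFLMCD, with Chil3 listed at 0 in liver 18. The 8 Kupffer cell genes were split. Cd5l (-2.05), Marco (-2.27) and Vsig4 (-0.84) were lower in WT_NASH, whereas C6 (0.83), Timd4 (1.28) and Cd163 (2.53) were higher. Clec4f, the defining Kupffer cell lectin, was not called (log2 fold change -0.23, adjusted p = 0.554). Vsig4, Timd4, Cd163 and Clec4f are named here after their values were seen. The Kupffer cell genes summed to 131 to 190 FPKM in WT_NASH, against 262 to 494 FPKM in Ad_GFP_HFLMCD. Much of the WT_NASH sum was C6 alone, with 90.2 to 123 FPKM in WT_NASH and 70.2 to 110 FPKM in Ad_GFP_HFLMCD.

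Other leukocyte lists were lower in WT_NASH as well. All 7 T and NK cell genes were called lower, among them Cd3g (-2.38), Cd8a (-1.84) and Nkg7 (-2.25), as were 4 of 5 neutrophil genes (S100a9 -2.32, S100a8 -2.22, Csf3r -2.04) and 4 of 6 genes of conventional dendritic cells (Flt3 -2.17, Ccr7 -1.68, Cd209a -1.65). Dendritic cells also make Itgax. Lists of structural cells differed less or in the other direction. None of 6 sinusoidal endothelium genes was called in this edgeR test (Clec4g 0.06, Fcgr2b -0.34), 4 stellate cell genes were lower and 1 higher of 7 (Pdgfrb -1.27, Dcn -0.79, Ecm1 0.62), platelet genes had 1 lower and 1 higher of 3 tested (Pf4 -2.25, Ppbp 1.29), and all 6 hepatocyte genes were higher in WT_NASH (Serpina1c 1.88, Ttr 1.24, Apoa1 1.15). The part of these lists in the members' differences was not tested. In limma on the authors' FPKM, which changes the test and the values together, the median over all genes shifts by -0.60 on log2(FPKM + 0.1), and on log2(FPKM + 1) 6.98% of calls are higher, against 47.7% in edgeR. The members stayed lower and called in all of the alternatives run.

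Deletion of hepatocyte ChREBPα under the NASH diet was tested with the 8 livers labelled LKO_NASH and WT_NASH. No member was called in this fit, and neither was any of the 12786 genes (0.0%). At an unadjusted p below 0.05 edgeR had 1737 genes (13.6%), DESeq2 called 151 genes and limma-voom 0. Of the 10 members 9 had a positive log2 fold change, against 51.5% of all genes, and the median was 0.97 over the members and 0.01 over all genes. In 4 of 10 it reached 1 or more, which 1.96% of genes did. For every member the 4 LKO_NASH livers overlapped the 4 WT_NASH livers on FPKM, where 6.93% of genes did not overlap and were higher. An unadjusted p below 0.05 was found for Gpnmb, Itgax and Cd68, each higher, where 7.7% of genes had one and were higher.

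Trem2 had 1.15, 1.02, 0.56 and 5.80 FPKM in LKO_NASH livers 21 to 24, against 0.20, 0.52, 1.49 and 1.03 FPKM in WT_NASH livers 17 to 20. Liver 24 stood far above the rest and the other 3 LKO_NASH livers lay within the range of WT_NASH. The log2 fold change was 1.20 (SE 0.74, adjusted p = 0.462), and 0.06 without liver 24. Gpnmb had 1.73, 1.42, 0.88 and 14.0 FPKM in LKO_NASH, against 0.08, 0.20, 1.95 and 0.67 FPKM in WT_NASH. Its log2 fold change was 2.40 (SE 1.05, adjusted p = 0.367), and 0.77 without liver 24. Mmp12 had 1.96, 2.14, 0.57 and 5.52 FPKM in LKO_NASH, against 0.11, 0.13, 1.59 and 1.20 FPKM in WT_NASH. Liver 24 was again highest, and the log2 fold change was 1.56 (SE 0.83, adjusted p = 0.418), and 0.92 without that liver.

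Itgax and Cd68 depended less on liver 24. Itgax had 1.03, 0.69, 0.57 and 1.66 FPKM in LKO_NASH, against 0.12, 0.17, 0.57 and 0.34 FPKM in WT_NASH. Only liver 19 of WT_NASH reached the lowest LKO_NASH liver, and the log2 fold change was 1.54 (SE 0.47, adjusted p = 0.327), with 1.22 without liver 24. It was called when livers 19 and 21 were left out together (log2 fold change 2.01, adjusted p = 0.041), where 1525 genes were called. Liver 19 had the highest Itgax value of WT_NASH, so its removal raises the difference and that call gives no further support. Cd68 had 17.7, 14.1, 7.11 and 20.0 FPKM in LKO_NASH, against 6.42, 4.88, 8.99 and 8.38 FPKM in WT_NASH. Livers 21, 22 and 24 lay above all WT_NASH livers and liver 23 among them. Its log2 fold change was 0.88 (SE 0.28, adjusted p = 0.342), and 0.74 without liver 24.

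Lgals3 had 12.3, 6.05, 3.22 and 14.9 FPKM in LKO_NASH, against 2.96, 2.02, 5.84 and 5.93 FPKM in WT_NASH (log2 fold change 0.97, SE 0.47, adjusted p = 0.390). The receptors Ccr2 and Cx3cr1 were low throughout. Ccr2 had 1.02, 0.62, 0.34 and 1.27 FPKM in LKO_NASH, against 0.13, 0.38, 0.46 and 0.52 FPKM in WT_NASH (log2 fold change 0.97, SE 0.45, adjusted p = 0.379). Cx3cr1 had 0.99, 0.36, 0.53 and 1.55 FPKM in LKO_NASH, against 0.46, 0.44, 0.51 and 0.52 FPKM in WT_NASH (log2 fold change 0.66, SE 0.38, adjusted p = 0.438), with 0.26 without liver 24. In all 3 genes livers 21 and 24 were the highest of the 8.

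Spp1 and Cd9 showed another pattern across the livers. Spp1 had 48.1, 19.5, 39.6 and 25.4 FPKM in LKO_NASH, against 33.1, 24.8, 14.3 and 30.5 FPKM in WT_NASH (log2 fold change 0.23, SE 0.34, adjusted p = 0.741). Cd9 had 20.5, 10.8, 13.4 and 15.3 FPKM in LKO_NASH, against 15.7, 7.08, 11.9 and 25.7 FPKM in WT_NASH (log2 fold change -0.14, SE 0.34, adjusted p = 0.847). Liver 24 was not the highest in either, and their direction turned without single livers: Spp1 was at -0.03 without liver 21 and Cd9 at 0.18 without liver 20. The bile duct keratin gene Krt19 varied beside them, with 2.60, 0.45, 1.26 and 0.45 FPKM in LKO_NASH, against 0.67, 1.22, 0.41 and 1.65 FPKM in WT_NASH, and its part was not tested; Krt19 is named here after its values were seen.

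**Figure D2:**
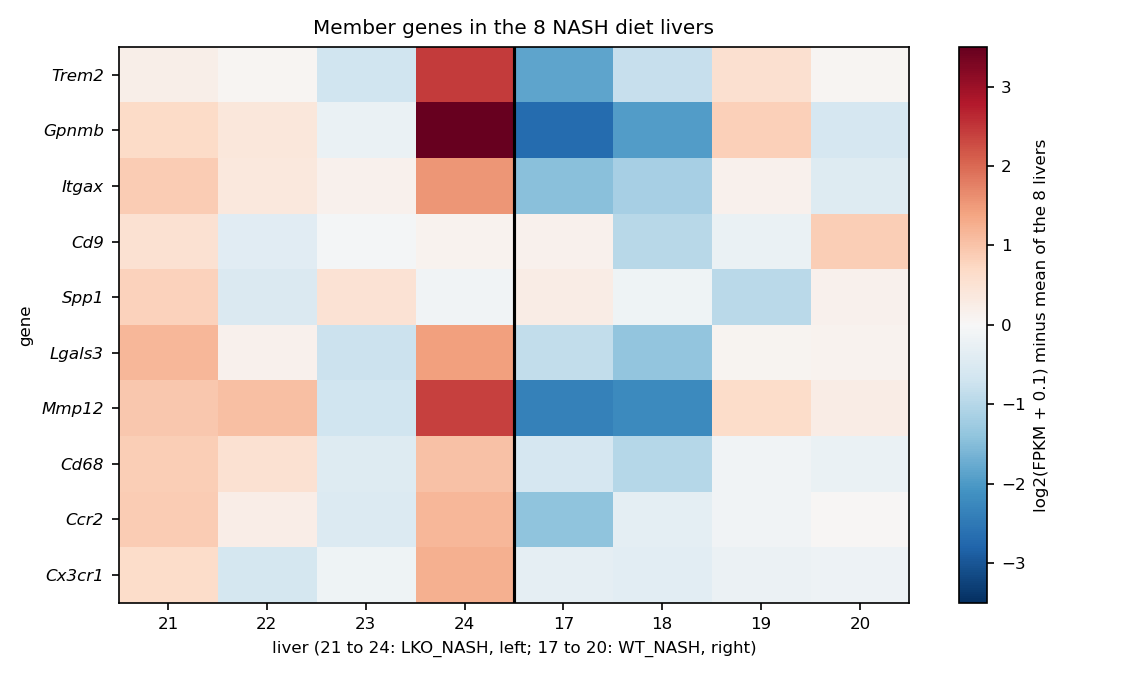
Colour map of the 10 members (rows) in the 8 NASH diet livers (columns; 21 to 24 LKO_NASH, then 17 to 20 WT_NASH), as log2(FPKM + 0.1) minus the mean of the 8 livers, red above and blue below. Liver 24 is deep red for Trem2, Gpnmb and Mmp12, livers 17 and 18 are blue for those genes, and Spp1 and Cd9 follow another order.

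The related lists held no called gene in this comparison either. All 10 genes of macrophages in general had a positive log2 fold change (median 0.69; Lyz2 0.93, adjusted p = 0.358; C1qa 0.52, adjusted p = 0.372, both edgeR), and they summed to 144 to 343 FPKM in LKO_NASH, against 107 to 216 FPKM in WT_NASH. Liver 23 was lowest of LKO_NASH in that sum, as it was for Cd68, Lgals3, Trem2, Gpnmb, Itgax, Mmp12 and Ccr2. The 8 tested genes of TREM2 signalling had a median of 0.62 (Tyrobp 0.81, Lyn -0.10), the 15 further lipid-associated macrophage genes 0.34 (Plin2 0.34, Ctsl -0.22), the 6 tested monocyte genes 0.52 (Ly6c2 0.31, S100a4 0.78), and the 5 tested ligands and growth factors 0.28 (Csf1 0.20, Cxcl16 0.49), which as a whole list summed to 10.6 to 15.4 FPKM in LKO_NASH, against 6.20 to 10.5 FPKM in WT_NASH. The Kupffer cell genes had a median of 0.26 (C6 -0.71, Cd5l 0.71) and the osteopontin receptors 0.29 (Itgb1 -0.15, Itgb5 0.32). Hepatocyte genes had a median of -0.33 (Alb -0.30, Apoa1 -0.37) and were at their lowest sum in liver 24 (46061 FPKM, against 51479 to 62465 FPKM in the other 7 livers). The part of these cell type differences in the members' values was not tested.

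No gene was called in the lists of the remaining cell types. Sinusoidal endothelium genes had a median of 0.27 (Clec4g 0.29, Fcgr2b 0.35), stellate cell genes 0.02 (Dcn 0.02, Ecm1 0.00), cholangiocyte genes -0.07 (Epcam -0.39) and platelet genes 0.24 (Pf4 0.53, Ppbp 0.24). Neutrophil genes had a median of -0.11 over 4 (S100a9 -0.52, Cxcr2 0.31). T and NK cell genes had a median of 0.98 over the 3 tested, beside 0.97 for the members: Nkg7 was at 0.56, and Cd3e at 1.45 (edgeR adjusted p = 0.310) and Cd8a at 0.98 (adjusted p = 0.337), both named here after their values were seen, with too few reads to test Cd3g. The 7 T and NK cell genes summed to 2.12 to 2.84 FPKM in LKO_NASH, against 0.98 to 1.41 FPKM in WT_NASH, without overlap. Conventional dendritic cell genes had a median of 0.16 over the 4 tested (Zbtb46 0.09, Clec9a 0.12) and summed to 2.00 to 3.10 FPKM in LKO_NASH, against 1.60 to 1.98 FPKM in WT_NASH, also without overlap. The part of both lists in the members' values was not tested.

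The adenovirus for Chrebpα under the HFLMCD diet was tested with the 8 livers labelled Ad_Chrebpa_HFLMCD and Ad_GFP_HFLMCD, between which Mlxipl was not called. Of the 10 members, 2 were higher in Ad_Chrebpa_HFLMCD, Itgax and Mmp12, and none was lower, while edgeR called 4.95% of the 13658 genes higher and 3.18% lower (8.13% in all). Of those calls 60.9% were higher, against 30.2% of the calls of limma on log2(FPKM + 1). The other 8 members were not called. The log2 fold change was positive in 7 of 10, against 47.4% of all genes, and the median was 0.12 over the members and -0.01 over all genes. The whole range of the members, from -0.71 to 0.40, was small beside the differences between the diets.

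Mmp12 had 106, 140.4, 136 and 132 FPKM in Ad_Chrebpa_HFLMCD livers 13 to 16, against 97.1, 110.1, 102 and 109 FPKM in Ad_GFP_HFLMCD livers 9 to 12. Livers 14, 15 and 16 lay above all of Ad_GFP_HFLMCD on this scale, and liver 13 lay among them. The log2 fold change was 0.37 (SE 0.08, adjusted p = 0.022), 1.29-fold higher, but the call ended without liver 9 (adjusted p = 0.053), 11 (0.058), 15 (0.057) or 16 (0.068), in limma on log2(FPKM + 1) (0.063) and in a fit of all 16 livers (0.798). Itgax had 13.7, 17.8, 17.9 and 16.2 FPKM in Ad_Chrebpa_HFLMCD, against 10.7, 15.2, 12.4 and 14.2 FPKM in Ad_GFP_HFLMCD. Liver 13 again overlapped the other group. The log2 fold change was 0.40 (SE 0.10, adjusted p = 0.045), 1.32-fold higher, and the call ended without liver 9 (0.084), 11 (0.103), 12 (0.067), 14 (0.070), 15 (0.100) or 16 (0.107), in limma on log2(FPKM + 1) (0.111), with only genes of a mean FPKM of at least 1 (0.053) and in a fit of all 16 livers (0.514). On TMM CPM both genes had groups that did not overlap, as 9.72% of genes did in that direction.

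Cx3cr1 had 4.86, 4.27, 4.65 and 3.68 FPKM in Ad_Chrebpa_HFLMCD, against 5.02, 7.65, 5.74 and 6.81 FPKM in Ad_GFP_HFLMCD. It was the 1 member whose groups did not overlap on FPKM, where 14.5% of genes were lower without overlap, and they did overlap on TMM CPM. The edgeR log2 fold change of -0.45 (SE 0.13, adjusted p = 0.054) missed the threshold, and Cx3cr1 was called lower by DESeq2 (adjusted p = 0.014), by limma on log2(FPKM + 1) (0.049) and without liver 9 (0.038). Spp1 had 94.5, 135, 99.9 and 88.6 FPKM in Ad_Chrebpa_HFLMCD, against 110.0, 272, 154 and 187 FPKM in Ad_GFP_HFLMCD. Only liver 14 reached into the range of the other group, and the log2 fold change was -0.71 (SE 0.23, adjusted p = 0.080). Spp1 was called lower without liver 9 (adjusted p = 0.032) or without liver 14 (0.046), and was at -0.47 without liver 10, its highest liver (adjusted p = 0.141).

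The other members differed less between the groups. Lgals3 had 126, 177, 165 and 148 FPKM in Ad_Chrebpa_HFLMCD, against 118, 145, 149 and 138 FPKM in Ad_GFP_HFLMCD (edgeR log2 fold change 0.24, SE 0.10, adjusted p = 0.167). Gpnmb had 125, 198, 163 and 153 FPKM in Ad_Chrebpa_HFLMCD, against 113, 152.5, 155 and 149 FPKM in Ad_GFP_HFLMCD (0.24, SE 0.13, adjusted p = 0.288). Trem2 had 29.2, 38.7, 28.6 and 31.0 FPKM in Ad_Chrebpa_HFLMCD, against 25.0, 32.8, 34.5 and 33.6 FPKM in Ad_GFP_HFLMCD (0.09, SE 0.12, adjusted p = 0.677). In these 3 genes liver 14 was the highest of Ad_Chrebpa_HFLMCD and liver 9 the lowest of Ad_GFP_HFLMCD, and the ranges overlapped.

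Cd68 had 86.95, 123, 119 and 118 FPKM in Ad_Chrebpa_HFLMCD, against 89.1, 132, 105 and 107 FPKM in Ad_GFP_HFLMCD (edgeR log2 fold change 0.12, SE 0.12, 95% interval -0.14 to 0.38, adjusted p = 0.560). Cd9 had 54.8, 71.7, 67.3 and 62.5 FPKM in Ad_Chrebpa_HFLMCD, against 52.5, 63.7, 57.1 and 75.1 FPKM in Ad_GFP_HFLMCD (0.12, SE 0.11, interval -0.12 to 0.36, adjusted p = 0.532). Ccr2 had 5.38, 4.32, 5.64 and 6.17 FPKM in Ad_Chrebpa_HFLMCD, against 5.70, 8.13, 5.59 and 5.96 FPKM in Ad_GFP_HFLMCD (-0.16, SE 0.13, interval -0.45 to 0.13, adjusted p = 0.463). The groups overlapped for all 3, and the intervals allow changes in either direction.

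**Figure D3:**
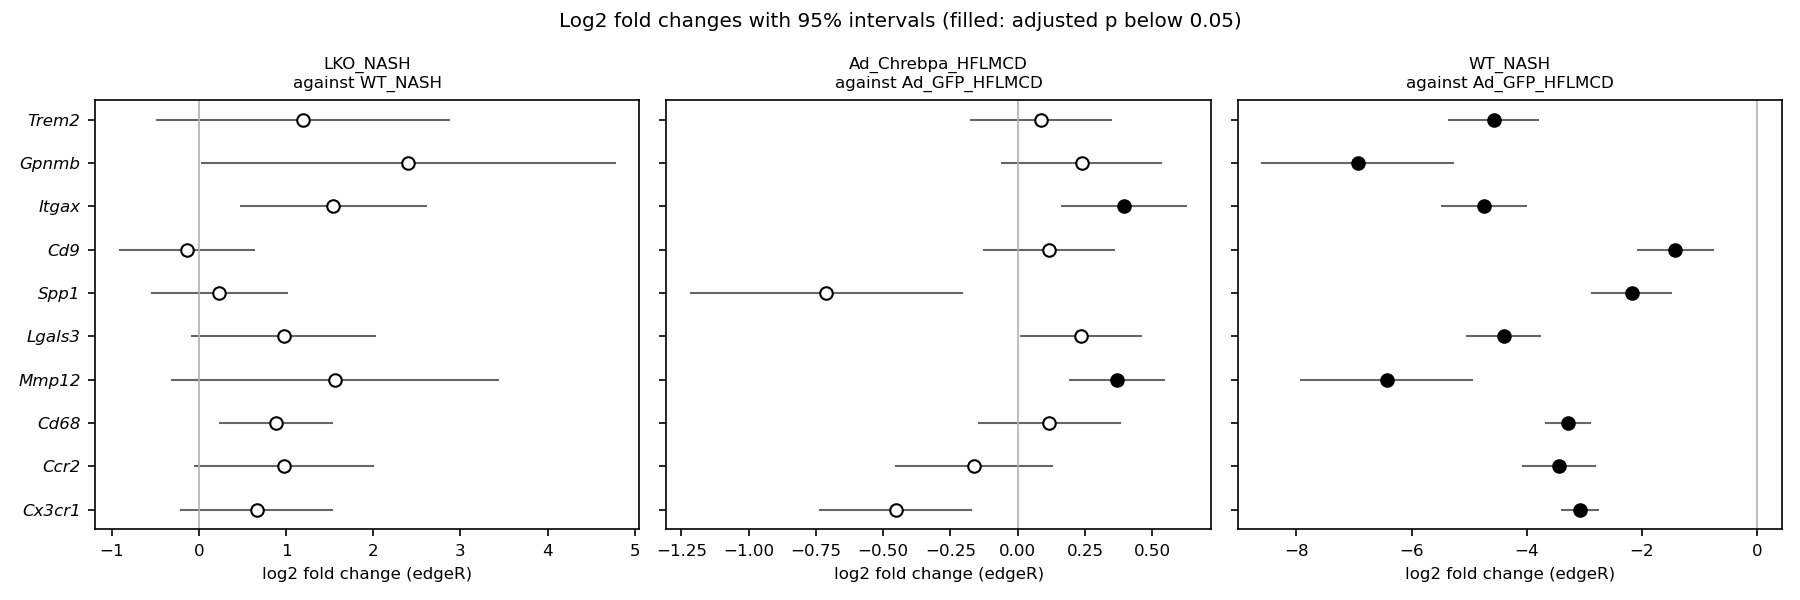
edgeR log2 fold changes of the 10 members with 95% intervals in 3 comparisons, LKO_NASH over WT_NASH, Ad_Chrebpa_HFLMCD over Ad_GFP_HFLMCD and WT_NASH over Ad_GFP_HFLMCD, each on its own axis, with filled circles for adjusted p below 0.05. No circle is filled in the first panel, Itgax (0.40) and Mmp12 (0.37) are filled in the second, and all 10 are filled and below 0 in the third.

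The Ccr2 ligands Ccl7 and Ccl2 were lower in Ad_Chrebpa_HFLMCD, whereas Ccr2 itself was not called. Ccl7 had 1.81, 1.58, 2.46 and 1.82 FPKM in Ad_Chrebpa_HFLMCD, against 4.71, 5.86, 5.69 and 6.17 FPKM in Ad_GFP_HFLMCD (edgeR log2 fold change -1.48, SE 0.16, adjusted p = 0.0015). Ccl2 had 8.90, 9.11, 11.6 and 8.90 FPKM in Ad_Chrebpa_HFLMCD, against 14.8, 19.6, 16.8 and 18.4 FPKM in Ad_GFP_HFLMCD (-0.78, SE 0.11, adjusted p = 0.0043). The groups did not overlap for either on FPKM, where 14.5% of all genes were lower without overlap. Ccl7 and Ccl2 were the 2 called genes of 6 tested in the list of ligands and growth factors (median -0.40). Of the 8 tested cholangiocyte genes 4 were lower and none higher, beside the lower values of Spp1. Krt19 had 1.01, 0.80, 0.81 and 0.95 FPKM in Ad_Chrebpa_HFLMCD, against 1.91, 2.82, 1.62 and 2.43 FPKM in Ad_GFP_HFLMCD (-1.22, SE 0.20, adjusted p = 0.0080). The others were Cftr (-2.51, adjusted p = 0.013), the adhesion gene Epcam (-0.90, adjusted p = 0.022) and Sox9 (-0.57, adjusted p = 0.046), the last named after its values were seen. The 9 markers summed to 15.2 to 18.2 FPKM in Ad_Chrebpa_HFLMCD, against 17.4 to 27.7 FPKM in Ad_GFP_HFLMCD, and their part in the Spp1 values was not tested.

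**Figure D4:**
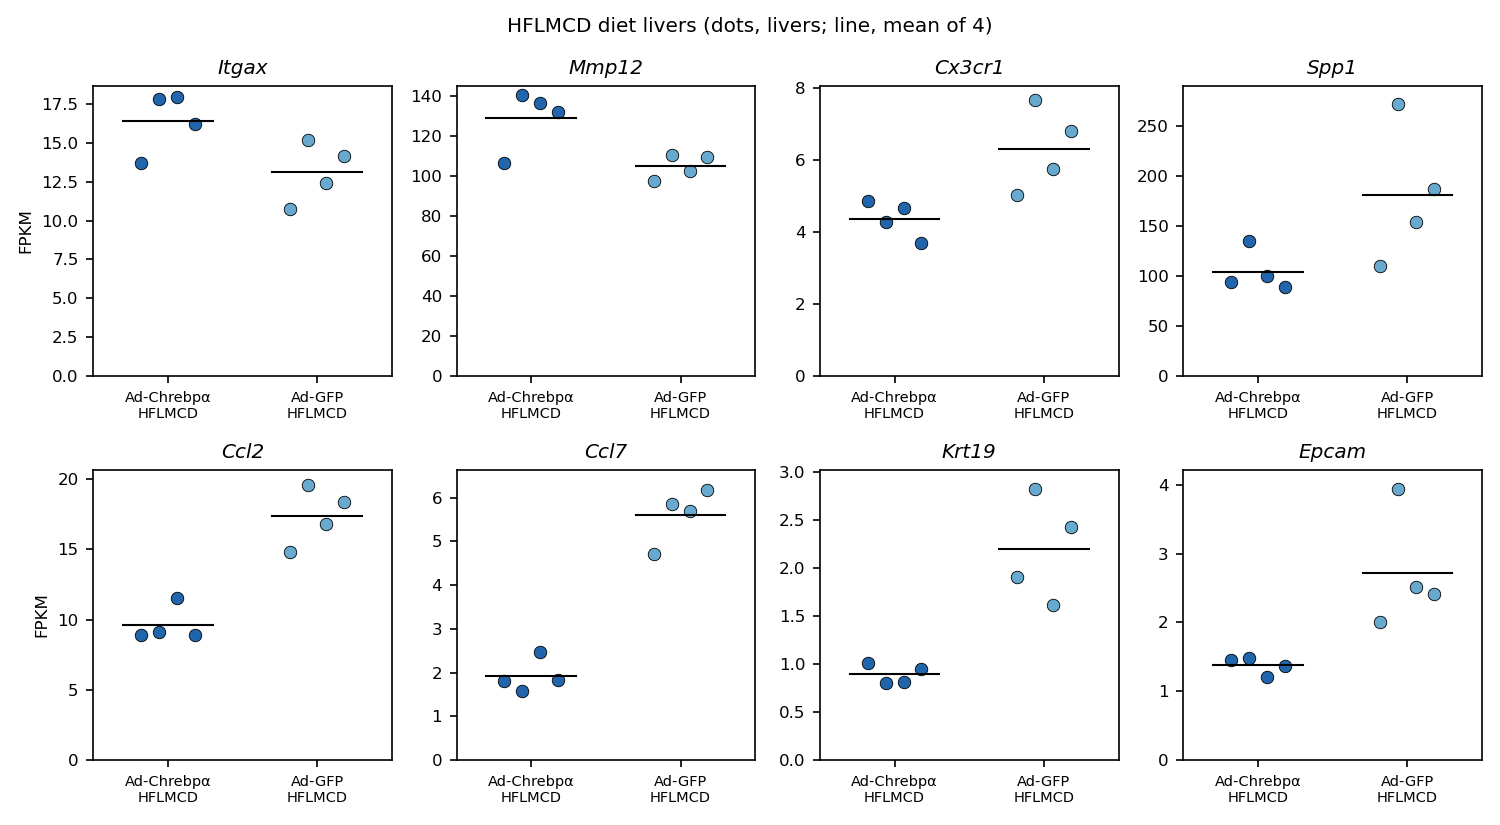
FPKM (axes from 0) in the 8 HFLMCD livers of 4 members, 2 chemokines and 2 cholangiocyte genes, with 1 dot per liver and a line at the mean of 4. Itgax and Mmp12 have the higher mean in Ad_Chrebpa_HFLMCD and the other 6 genes the lower mean. The groups do not overlap for Cx3cr1, Ccl2, Ccl7, Krt19 and Epcam, where 14.5% of all genes were lower without overlap on FPKM. On TMM CPM the groups overlap for Cx3cr1.

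The macrophage lists around the members held no called gene in the adenovirus comparison. Of the 10 genes of macrophages in general 9 had a negative log2 fold change (median -0.29; Lyz2 -0.07, adjusted p = 0.787; C1qb -0.32, adjusted p = 0.153, both edgeR), and they summed to 865 to 1259 FPKM in Ad_Chrebpa_HFLMCD, against 1115 to 1687 FPKM in Ad_GFP_HFLMCD. That is the opposite sign to the 2 called members, and a test of that contrast between genes was not made. TREM2 signalling had a median of -0.13 (Tyrobp -0.09, Lyn -0.12), the 15 further lipid-associated macrophage genes 0.10 (Ctsd 0.03, Ctsl 0.06), Kupffer cell genes 0.02 (Cd5l -0.45, C6 0.28), monocyte genes 0.33 (S100a4 0.34, Ms4a7 -0.43) and osteopontin receptors -0.07 (Itgb1 -0.07, Itgb5 -0.07). Among 6 hepatocyte genes Apoa1 was called higher (0.33, adjusted p = 0.042). Conventional dendritic cell genes, which could share Itgax, had a median of 0.24 (Zbtb46 0.23, Clec9a 0.24) and summed to 4.16 to 6.56 FPKM in Ad_Chrebpa_HFLMCD, against 3.97 to 5.46 FPKM in Ad_GFP_HFLMCD, and their part in the Itgax values was not tested. Sinusoidal endothelium (0.05; Clec4g 0.07, Fcgr2b 0.18), stellate cell (0.01; Dcn 0.09, Ecm1 0.01), neutrophil (0.06; S100a9 -0.08, S100a8 -0.21), T and NK cell (0.25; Nkg7 0.31, Cd3g 0.30) and platelet genes (-0.05; Pf4 -0.15, Itga2b -0.05) held none called.

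With group means removed and the 16 livers pooled, 7 of the members varied together, while Spp1, Cd9 and Cx3cr1 followed them less closely. The NASH diet livers spread most and so weigh most in this. On the log2 scale Gpnmb deviated from its group mean by 2.47 in liver 24 of LKO_NASH and by 0.31 in liver 14 of Ad_Chrebpa_HFLMCD. In liver 14, where Gpnmb was highest of Ad_Chrebpa_HFLMCD, Ccr2 was lowest (-0.32), so joint variation within each group is not shown. On TMM log2 CPM the closest pairs were Trem2 and Gpnmb (Pearson r 0.97), Gpnmb and Itgax (0.95) and Lgals3 and Cd68 (0.93), and without liver 24 these were 0.96, 0.97 and 0.91. Spp1 ran against Gpnmb (-0.47), Mmp12 (-0.46) and Trem2 (-0.42), and without liver 24 these were -0.41, -0.40 and -0.36. With Itgax it was at -0.32 and with Ccr2 at -0.24 (-0.24 and -0.16 without liver 24). Spp1 was near 0 with Lgals3 (-0.10) and Cd68 (-0.07), and at 0.015 and 0.025 without liver 24. The highest r of Spp1 was 0.50, with Cd9 (0.52 without liver 24). Spp1 with Cx3cr1 was at 0.27, and at 0.64 without liver 24, which is then the highest r of Spp1. Cx3cr1 with Trem2 was at 0.58, with Gpnmb at 0.52 and with Mmp12 at 0.34, and without liver 24 these were 0.16, 0.14 and 0.09, so those pairs rest on liver 24. Cd9 was closest to Lgals3, at 0.55, and at 0.63 without liver 24. The livers share libraries of different depth and cell makeup, and these values are descriptions without a test.

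Other genes were ranked by their mean r to the 10 members over the same 16 livers, with group means removed, among 11417 genes. The 5 closest with at least 1 FPKM in a group were Capg (mean r 0.69), which encodes an actin-capping protein of macrophages, Uap1l1 (0.66), the kinase gene Limk1 (0.66), Comtd1 (0.66) and Chpf (0.66). Capg averaged 3.76 FPKM in LKO_NASH and 1.89 FPKM in WT_NASH, and 39.9 FPKM in Ad_Chrebpa_HFLMCD and 38.9 FPKM in Ad_GFP_HFLMCD, the same order of groups as for Trem2. It was also on the list of lipid-associated macrophage genes. Limk1 averaged 1.95 FPKM in LKO_NASH and 0.67 FPKM in WT_NASH, and 2.52 FPKM in Ad_Chrebpa_HFLMCD and 3.11 FPKM in Ad_GFP_HFLMCD, a smaller difference between the diets.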

How the data were processed

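For each gene of a liver the authors deposited an expected count, an estimate of reads or fragments that is not normalized, and an FPKM value, per the file headers. HISAT2 is named in the submitters' processing notes without a version; which program counted the reads, on which genome build and with which annotation were not given in the sources used here. Genes not listed in a table were taken as 0, and 26 entries named by a transcript were summed into their gene. Between 25.3% and 27.2% of the counts in a library had decimals.

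The quasi-likelihood test of edgeR 4.0.16 (R 4.3.3; glmQLFit and glmQLFTest, two-sided, after filterByExpr and TMM scaling) was run on the expected counts, rounded to integers, in 3 fits of 8 livers with group as the only term, and a gene was called at an adjusted p below 0.05, by Benjamini-Hochberg over all genes tested. Every adjusted p is from edgeR unless another tool is named. Biological coefficients of variation were 0.221 (NASH diet), 0.126 (HFLMCD diet) and 0.164 (controls). FPKM is given per liver or as mean ± SD of 4. The tests were tested on simulated data. Alternatives were DESeq2 1.42.0, DESeq2 size factors, limma-voom and limma 3.58.1 on log2(FPKM + 1) or log2(FPKM + 0.1), other filters, 1 fit of all 16 livers, and leaving out livers.

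The 10 members and the 15 lists of other genes were chosen with earlier results of these data known. Named were all members, at most 3 called genes of a list in a comparison (lowest adjusted p first), the 2 most abundant genes of a list with none called, and the 5 genes most like the members; exceptions are stated, and some genes are not reported here. Promoter windows are from RefSeq (GRCm38.p6), used for sequence only.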

Additional observations from a re-analysis of the deposited data

Results flagged for a closer look

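In each group of 4 livers the highest and the lowest value were compared with the nearest other liver for the 10 members and their sum, which makes 44 groups. A liver was taken as standing apart where its gap, as a share of the group's range, was above Dixon's 95% critical value, which chance gives in about 1 in 20 groups. In LKO_NASH, liver 24 stood above the other 3 with 5.80 FPKM of Trem2 (gap 0.887 of the range) and 14.0 FPKM of Gpnmb (gap 0.935). In Ad_Chrebpa_HFLMCD, liver 13 stood below the others with 86.95 FPKM of Cd68 (gap 0.876). In Ad_GFP_HFLMCD, liver 9 stood below the others with 112.53 FPKM of Gpnmb (gap 0.859), and liver 10 above the others with 8.13 FPKM of Ccr2 (gap 0.854).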

How the results depend on the processing

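Under the alternatives run, all 10 members stayed lower and called in WT_NASH against Ad_GFP_HFLMCD, including without each liver in turn (10 to 10 called). In LKO_NASH against WT_NASH, the count of genes called was 0 in the edgeR fit, 151 with DESeq2, 152 in 1 fit of all 16 livers, 1525 without livers 19 and 21 together and 0 to 420 leaving out each liver in turn, with 420 without liver 21; members called were 0 in each of these except 1, Itgax, without livers 19 and 21. Directions turned there for Cd9, at 0.0885 on log2(FPKM + 1), and also 0.0885 without a filter, 0.10 on log2(FPKM + 0.1) and 0.18 without liver 20 (lowest without any liver -0.37), and for Spp1, at -0.0276 without liver 21 (highest 0.42) and -0.23 without livers 19 and 21. The median over all genes shifted by 0.14 on log2(FPKM + 0.1) in this comparison, more than the size of the Cd9 value. In Ad_Chrebpa_HFLMCD against Ad_GFP_HFLMCD, the count of genes called was 1110, and was 1902 with DESeq2, 336 in the fit of all 16 livers and 400 to 1722 without each liver in turn: 599 without liver 11, 533 without 12, 525 without 13, 1722 without 14, 609 without 15 and 400 without 16. Members called were 2 (Itgax and Mmp12, higher), and were 3 with DESeq2 (also Cx3cr1, lower), 1 with a mean FPKM of at least 1 (Mmp12), 1 on log2(FPKM + 1) and 1 on log2(FPKM + 0.1) (Cx3cr1, lower, in both), 0 on log2(FPKM + 1) without a filter, 0 in the fit of all 16 livers and 0 to 2 without each liver in turn: 0 without 11, 15 or 16, Mmp12 alone without 12, Cx3cr1 and Spp1, both lower, in place of Itgax and Mmp12 without 9, and Mmp12 higher and Spp1 lower without 14. Members with groups that did not overlap were 1 on FPKM and 2 on TMM CPM. Trem2 turned to -0.0159 without liver 14, with a highest value of 0.15 without another liver. Apart from the settings that leave out samples, the cause was not tested.

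Members with a positive log2 fold change, counted after seeing the data, were 8 to 10 in LKO_NASH against WT_NASH and 6 to 7 in Ad_Chrebpa_HFLMCD against Ad_GFP_HFLMCD without each liver in turn. No paired analysis was possible because the groups compared share no replicate number. Depth limits the low members in NASH diet livers, where WT_NASH libraries held 8 to 302 expected counts of Gpnmb and 10 to 234 of Mmp12.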

Other observations

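Relative to Cd68, itself a member and a gene of macrophages in general, the lipid-associated members were also at other levels in the control livers. Gpnmb per Cd68, as a ratio of FPKM, averaged 0.0876 in WT_NASH and 1.32 in Ad_GFP_HFLMCD, Mmp12 per Cd68 0.0910 in WT_NASH and 0.980 in Ad_GFP_HFLMCD, and Trem2 per Cd68 0.107 in WT_NASH and 0.293 in Ad_GFP_HFLMCD. The receptors of incoming monocytes were closer: Ccr2 per Cd68 averaged 0.0528 in WT_NASH and 0.0586 in Ad_GFP_HFLMCD, and Cx3cr1 per Cd68 0.0701 in WT_NASH and 0.0582 in Ad_GFP_HFLMCD. This depends on the choice of Cd68. Its log2 fold change between the control livers was -3.29, against a median of -2.20 over the list of macrophages in general. In that list only Lyz2 (-3.68) differed more than Cd68, and ratios to the listed genes were not made. Cd9 and Spp1 lay the other way: Cd9 per Cd68 averaged 2.07 in WT_NASH and 0.580 in Ad_GFP_HFLMCD, and Spp1 per Cd68 3.87 in WT_NASH and 1.63 in Ad_GFP_HFLMCD (exact permutation p = 0.0857, two-sided, adjusted 0.193). A two-sided exact permutation test of the log2 ratios gave p = 0.0286 for Gpnmb, Mmp12, Trem2, Itgax, Lgals3 and Cd9. That is the smallest p that groups of 4 can give. After Benjamini-Hochberg adjustment over the 27 ratios compared each was at 0.0857, so none passed. Because p could go no lower, passing needed many of the 27 ratios at that smallest p, and no conclusion is drawn from the adjusted values. These ratios were chosen after the values were seen.

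In Ad_Chrebpa_HFLMCD against Ad_GFP_HFLMCD the ratio to Cd68 averaged 1.16 in Ad_Chrebpa_HFLMCD and 0.980 in Ad_GFP_HFLMCD for Mmp12, 0.148 in Ad_Chrebpa_HFLMCD and 0.122 in Ad_GFP_HFLMCD for Itgax, and 0.944 in Ad_Chrebpa_HFLMCD and 1.63 in Ad_GFP_HFLMCD for Spp1. For these 3 the 4 livers of each group did not overlap (exact permutation p = 0.0286 each, two-sided, adjusted 0.0857). Between LKO_NASH and WT_NASH no ratio reached an unadjusted p of 0.05: Gpnmb per Cd68 averaged 0.256 in LKO_NASH and 0.0876 in WT_NASH (exact permutation p = 0.200), and Itgax per Cd68 0.0676 in LKO_NASH and 0.0394 in WT_NASH (exact permutation p = 0.0857).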
